A study of Rattus norvegicus with 8 samples.

Results

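The genes described here build the machinery that shows peptides to T cells: Cd74, RT1-Da, RT1-Db1, RT1-Ba, RT1-Bb, B2m, Tap1, Tap2, Tapbp and Psmb8. They were chosen by name, as the rat RT1 class II chains, the invariant chain, the class I light chain and the class I peptide supply, and every transcript row with one of these symbols was taken. Of the 10 genes, 9 had a row and Tap2 had none, and these 9 of the 13272 gene symbols had 12 of the 16266 transcript rows. The RNAseq data come from the whole hippocampus of rats without adrenal glands, with 4 rats in the vehicle group and 4 in the CORT group. Both groups had been adrenalectomized, carried a jugular cannula, and had drunk corticosterone in saline during recovery until it was withdrawn for washout before the experiment. The vehicle rats then received 0.45% saline for 30 min, and the CORT rats received corticosterone-2-hydroxypropyl-β-cyclodextrin at 0.75 mg/mL in the same saline, starting at zeitgeber time (ZT) 2. The methods place collection 2 h after the start, at ZT 4, whereas the labels give ZT2 alone. The labels name Sprague-Dawley rats of 3 to 4 months and title the vehicle samples "Untreated", while the methods name male Lister hooded rats of a younger age.

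Cells present antigen by 2 routes. In the class I route, used by nearly all nucleated cells, the proteasome cuts cytosolic proteins, the Tap1 and Tap2 transporter moves the peptides into the endoplasmic reticulum, and tapasin (Tapbp) helps to load them on a heavy chain held by β2-microglobulin (B2m). In the class II route, used mainly by professional antigen presenting cells, an alpha and a beta chain assemble around the invariant chain (Cd74), which keeps the groove closed until peptides from endosomes are loaded. In the healthy brain class II is low, found mostly on macrophages of the borders and vessels and on some microglia. Interferon-gamma raises both routes, and glucocorticoids are known as suppressors of many immune genes.

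The promoters of these genes are shown first, because the 2 routes carry different control elements. Promoter sequences of RefSeq (GRCr8 build, 250 bases before to 50 after the gene start) were found for 10 of the 10 genes. Class II promoters are bound at the X box by RFX and at the Y box by NF-Y, on which the coactivator Ciita assembles. The letters searched below were chosen with the promoters in view, so their shares describe these genes and do not measure enrichment. The letters CTGATTGG (Y box) were found on either strand in 3.5% of 33469 promoters and in 4 of the 10 genes, which are the 4 RT1 class II chains. The letters GCAACNG (X box core, where N is any base) were in 12.2% of all promoters and in 3 of the 10 genes, and both together in 0.394% of all promoters. In the lines below the capitals mark these letters, 5′ to 3′ on the gene's strand. They cover chr20:4515323-4515380 (plus strand) for RT1-Da, chr20:4560228-4560285 (minus) for RT1-Db1, chr20:4576971-4577028 (plus) for RT1-Ba and chr20:4604165-4604222 (minus) for RT1-Bb, all in GRCr8.
RT1-Da: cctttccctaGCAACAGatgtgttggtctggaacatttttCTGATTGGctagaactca
RT1-Db1: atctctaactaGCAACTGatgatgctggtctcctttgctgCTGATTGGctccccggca
RT1-Ba: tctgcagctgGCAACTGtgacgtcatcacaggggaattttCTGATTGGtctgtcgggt
RT1-Bb: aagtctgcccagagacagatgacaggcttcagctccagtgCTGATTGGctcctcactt

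The X and Y letters were separated by 23 bases in RT1-Da and RT1-Ba and by 22 bases in RT1-Db1, and the Y box started 46 to 83 bases upstream of the gene start in these genes and in RT1-Bb. The RT1-Bb window holds no match to the X letters, and the Cd74 window none to either motif. The interferon-stimulated response element (ISRE, searched as GAAA, any 2 bases, GAAA) was in 3.92% of all promoters and in 5 of the 10 genes: B2m, Tap1, Tap2, Tapbp and Psmb8, the genes of the class I route. Its letters are in capitals in the 4 genes that have values, at chr3:129549170-129549199 (plus) for B2m, chr20:4668645-4668674 (minus) for Tap1, chr20:4657016-4657045 (minus) for Psmb8 and chr20:4967881-4967910 (minus) for Tapbp in GRCr8. In Tap1 and Psmb8 the element lies on the other strand, and in Tapbp 2 overlapping matches are merged.
B2m: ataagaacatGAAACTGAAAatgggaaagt
Tap1: cggtggctgcTTTCGGTTTCttcttcctct
Psmb8: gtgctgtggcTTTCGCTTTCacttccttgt
Tapbp: tttgaggGAAAATGAAAGTGAAAggaaaca

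A glucocorticoid response element, searched as GNACA and TGTNC with 3 bases between them, was in 0.439% of all promoters and in 0 of these 10, which says only that these letters are not in the windows. A match is a description of letters and was not tested as a binding site.

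The levels are the authors' FPKM, in which fragments are divided by the transcript's length and the size of the library, with 1 value for each group. No value for a single rat was used, so the spread between rats is unknown and no test was run. A difference is given as the log2 ratio of the CORT over the vehicle FPKM, without a pseudocount, and at least 1.5-fold is used as a mark of size. Whether any difference exceeds the spread between rats cannot be told from these values.

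All 12 rows had a lower FPKM in the CORT group than in the vehicle group, against 45.0% of all 16266 rows. Of the 12 rows, 7 were lower by at least 1.5-fold, against 4.91% of all rows, and 0 were higher by as much, against 4.21%. The median log2 ratio of the 12 rows was -0.70, and that of all rows 0.02. The 7 rows belong to RT1-Da, RT1-Db1, RT1-Ba, RT1-Bb with both of its rows, Psmb8 and the lower of the 2 Tap1 rows. Tap1's other row, both Cd74 rows, B2m and Tapbp were under that size.

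**Figure D1:**
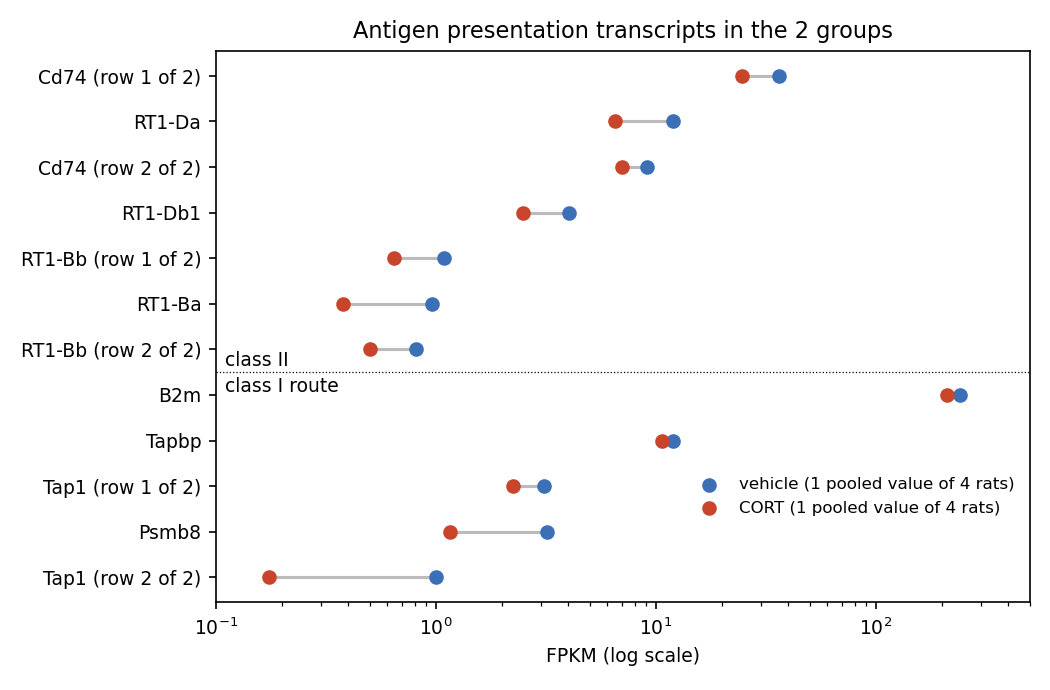
FPKM on a log scale (horizontal axis) of the 12 transcript rows in the vehicle group (blue) and the CORT group (red), with 1 pooled value per group and no error bar because no value per rat was used. Each CORT point lies to the left of its vehicle point, from a narrow gap in B2m (241 and 210 FPKM) to a wide one in the second Tap1 row (0.997 and 0.175 FPKM).

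Class II was led by the invariant chain. Cd74, on chromosome 18 of rn6 (56071477 to 56080849 in the deposited table), has 2 rows. The main one was at 36.3 FPKM under vehicle against 24.6 FPKM under CORT, a log2 ratio of -0.56, just short of 1.5-fold. The minor one was at 9.14 and 7.04 FPKM, a log2 ratio of -0.38. Summed over both rows Cd74 was at 45.4 and 31.6 FPKM, or 1.44 times as high in the vehicle group.

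RT1-Da and RT1-Db1 encode the alpha and beta chains of RT1-D, the rat counterpart of human HLA-DR. RT1-Da, between 4127643 and 4132616 on chromosome 20 of rn6, was at 11.97 FPKM under vehicle against 6.53 FPKM under CORT, a log2 ratio of -0.87 and a vehicle level 1.83 times as high. RT1-Db1, between 4087617 and 4097190, was at 4.03 and 2.49 FPKM, a log2 ratio of -0.69. Both chains of the pair were thus lower by similar ratios, although the alpha chain had the higher FPKM in each group.

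RT1-Ba and RT1-Bb encode the alpha and beta chains of RT1-B, the counterpart of HLA-DQ, and both were close to 1 FPKM or below it. RT1-Ba (4066131 to 4070721 on chromosome 20) was at 0.964 FPKM under vehicle against 0.376 FPKM under CORT, a log2 ratio of -1.36. The 2 rows of RT1-Bb (4039412 to 4049711) were at 1.09 and 0.642 FPKM and at 0.812 and 0.500 FPKM, with log2 ratios of -0.77 and -0.70. RT1 chains resemble each other in sequence, so how the authors' counting divided shared reads between them is uncertain.

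Together the 4 RT1 class II chains summed to 18.9 FPKM under vehicle against 10.5 FPKM under CORT, a log2 ratio of -0.84, and each of their 5 rows was lower by at least 1.5-fold. With a pseudocount of 1 FPKM only RT1-Da, at -0.79, was still past 1.5-fold, while RT1-Db1 was at -0.53, RT1-Ba at -0.51 and the RT1-Bb rows at -0.35 and -0.27. The order of levels was the same in both groups: Cd74, then RT1-Da, RT1-Db1, RT1-Bb and RT1-Ba, with rows of a symbol summed. Without the spread between rats it cannot be said which neighbours in that order differ. Of 7 other class II symbols looked up, among them those for the peptide editors RT1-DMa and RT1-DMb and the inhibitors RT1-DOa and RT1-DOb, 0 had a row.

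In the class I route the light chain stood far above the other members. B2m, on chromosome 3 of rn6 (114087286 to 114093309), was at 241 FPKM under vehicle against 210 FPKM under CORT, a log2 ratio of -0.20. Tapbp, the loading chaperone tapasin, between 5468055 and 5476007 on chromosome 20, was at 11.9 and 10.6 FPKM, a log2 ratio of -0.17. These were the smallest ratios among the 12 rows.

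Psmb8 encodes the immunoproteasome subunit LMP7, which replaces a constitutive catalytic subunit when immune genes are induced. It lies between 3990612 and 3993769 on chromosome 20 and was at 3.19 FPKM under vehicle against 1.15 FPKM under CORT, a log2 ratio of -1.47 and a vehicle level 2.77 times as high. Tap1 (3979034 to 3989669), one chain of the peptide transporter, had a main row at 3.10 and 2.25 FPKM, a log2 ratio of -0.46, and a minor row at 0.997 and 0.175 FPKM, a log2 ratio of -2.51. With a pseudocount of 1 FPKM the minor row was at -0.76 and Psmb8 at -0.96. Summed over both rows Tap1 was at 4.09 and 2.42 FPKM, a log2 ratio of -0.76, and was past 1.5-fold only with the minor row included. The partner chain, Tap2, had no row. The 5 class I rows had a median log2 ratio of -0.46, against -0.70 for the 7 class II rows, and the difference between the routes was not tested.

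Ratios of low rows scatter more, so each member was set beside rows of a similar mean FPKM. The share lower by at least 1.5-fold was 28.0% of the 832 rows under 1 FPKM, 6.3% of the 7615 rows from 1 to 10 FPKM, 1.03% of the 6895 rows from 10 to 100 FPKM and 1.52% of the 924 rows of at least 100 FPKM. Of the members, 4 of 4 rows under 1 FPKM and 3 of 5 rows from 1 to 10 FPKM were lower by as much, and 0 of the 3 higher rows were.

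The members differed in their place within their level range. A log2 ratio as low as that of Psmb8 or lower was found in 0.801% of the rows from 1 to 10 FPKM, and one as low as that of the main Cd74 row in 1.12% of the rows from 10 to 100 FPKM. For RT1-Da that share was 2.92% and for RT1-Db1 4.71% of the rows from 1 to 10 FPKM, and in the same range it was 9.53% for the main Tap1 row and 12.4% for the minor Cd74 row. Although B2m had a small ratio, 7.58% of the rows of at least 100 FPKM were as low, while for Tapbp it was 9.14% of the rows from 10 to 100 FPKM. Among rows under 1 FPKM the share was 10.2% for RT1-Ba, 25.2% and 22.8% for the rows of RT1-Bb, and 2.76% for the minor Tap1 row. Ratios like those of RT1-Bb were thus common at its level, and those of Psmb8 and the main Cd74 row were not. Some microglia markers from 10 to 100 FPKM, named below, had ratios like that of the main Cd74 row.

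**Figure D2:**
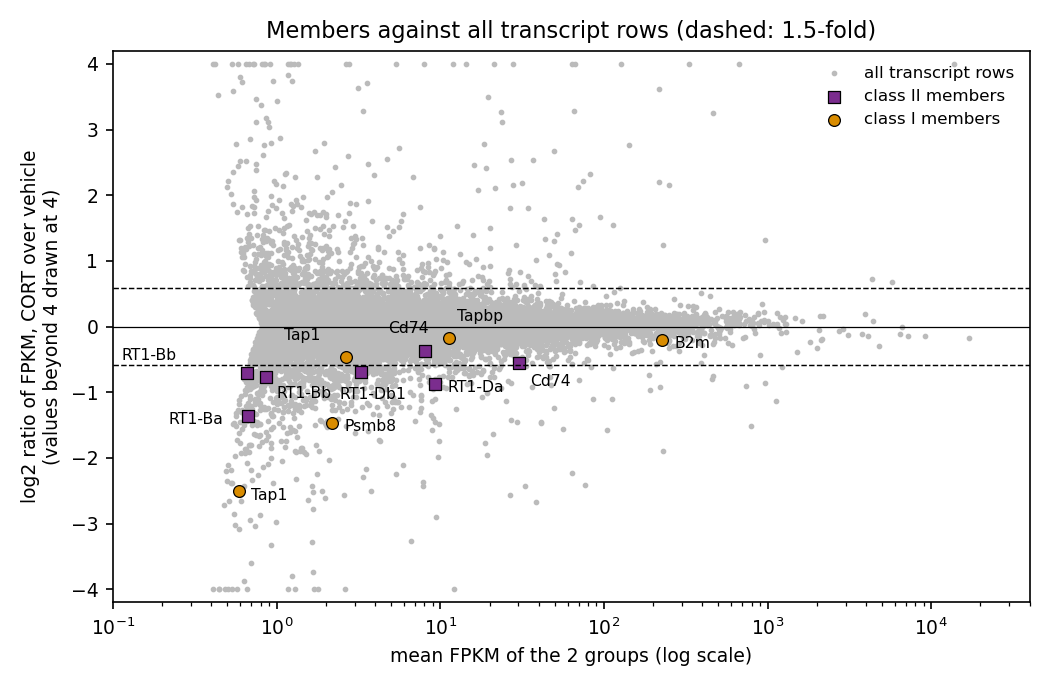
Log2 ratio of the CORT over the vehicle FPKM (vertical axis) against the mean FPKM of the 2 groups on a log scale (horizontal axis) for all 16266 transcript rows (grey), with class II members as squares and class I members as circles. The grey cloud narrows with level, and RT1-Da, Psmb8 and the main Cd74 row lie at its lower edge, while the RT1-Bb rows lie inside it.

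All members with a row other than Cd74 and B2m lie in the RT1 complex on chromosome 20, so rows between the outermost of them, Tap1 and Tapbp (3979034 to 5476007 in rn6), were examined as neighbours. Between Tap1 and RT1-Da, where the members are next to each other, 1 row of another gene was found, a pseudogene of Arrb2 at 52.1 FPKM under vehicle against 52.3 FPKM under CORT. In the whole stretch, 114 rows of 52 genes that are neither members nor class I heavy chains had a median log2 ratio of 0.02. Of these, 12 rows were lower and 10 higher by at least 1.5-fold. The 9 member rows in the stretch had a median of -0.77, with 7 lower and 0 higher. Psmb9, an immunoproteasome gene that is not a member, lies just outside this stretch beside Tap1, at 3973419 to 3978845. Its log2 ratio was -0.59, past 1.5-fold.

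Neighbours with large ratios went both ways. Among those with at least 1 FPKM in a group, the lowest ratios were those of 1 row of Abhd16a (-2.66), of Cfb, a complement factor (-2.38, from 1.59 to 0.306 FPKM), and of 1 row of Csnk2b (-1.74). The highest were those of another row of Abhd16a (1.69), 1 row of Pbx2 (1.34) and 1 row of Lsm2 (0.95). The lower Abhd16a row and Cfb reached 1 FPKM only in the vehicle group, and the higher Abhd16a row and Lsm2 only in the CORT group. Abhd16a was named for holding both the lowest and the highest ratio, so its rows lay on both sides of 0 by that choice.

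**Figure D3:**
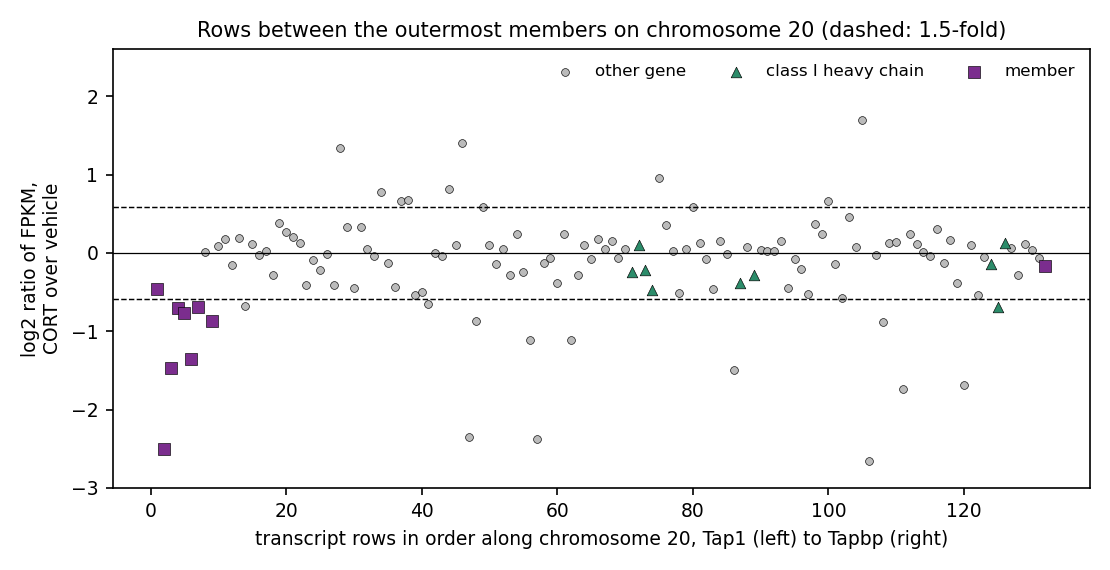
Log2 ratio of the CORT over the vehicle FPKM (vertical axis) of the 132 transcript rows between the outermost members on chromosome 20. Rows are in order of locus and not to scale, and rows that share a locus are in order of transcript identifier. The 8 member rows on the left, from Tap1 to RT1-Da, lie between -2.51 and -0.46, and the other genes lie around 0.02 with scatter to both sides. The 9 class I heavy chain rows have a median of -0.24.

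The other genes of the 2 routes were counted from whole lists, which were drawn up with earlier results of these data known. Over all rows, 4.91% were lower and 4.21% higher by at least 1.5-fold. Class I heavy chains had 27 rows of 19 RT1 genes, of which 18 were below the vehicle value, 6 were lower and 0 higher by at least 1.5-fold, and the median log2 ratio was -0.22. With at least 1 FPKM in a group, RT1-N3 (1.94 and 1.24 FPKM) was 1.5-fold lower. So was 1 row each of RT1-M6-2 (3.92 and 1.76 FPKM), RT1-A1 (2.49 and 1.54 FPKM) and RT1-CE10 (1.22 and 0.158 FPKM). The other rows of RT1-A1 (0.814 and 0.889 FPKM) and RT1-CE10 (1.76 and 2.15 FPKM) were higher in the CORT group. The lower RT1-CE10 row reached 1 FPKM only in the vehicle group. This row, RT1-M6-1 and another lower row of RT1-M6-2 had means under 1 FPKM. At that level, 28.0% of all rows were lower by at least 1.5-fold. The most abundant heavy chain rows were less different: RT1-S3 was at 21.1 and 18.6 FPKM and RT1-M3-1 at 15.9 and 16.1 FPKM. RT1-A2, a classical class Ia gene named here after its values were seen, was at 11.3 and 10.2 FPKM. Its log2 ratio of -0.15 was close to those of B2m and Tapbp, while the rows of RT1-A1 were at -0.70 and 0.13. These genes are near copies of each other, and their separate values are uncertain.

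The partners of Psmb8 were all below the vehicle value as well. Psmb9, the immunoproteasome subunit LMP2, was at 11.1 FPKM under vehicle against 7.41 FPKM under CORT, a log2 ratio of -0.59, and was 1 of 4 rows past 1.5-fold. Psme1, a proteasome activator subunit, was at 53.3 and 43.0 FPKM (-0.31), Psmb10 at 32.6 and 30.1 FPKM (-0.11) and Psme2 at 1.41 and 1.34 FPKM (-0.08). The constitutive counterparts Psmb5 and Psmb7 had 4 rows with a median of 0.07 and 0 past 1.5-fold. Psmb5, the subunit that Psmb8 replaces, was at 156 and 165 FPKM, so Psmb8 and its counterpart lay on opposite sides of 0.

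The general chaperones of peptide loading differed little. Calr, Canx, Pdia3, Tapbpl and Erap1 had 6 rows with a median log2 ratio of -0.11 and 0 past 1.5-fold, with Calr at 358 and 364 FPKM and Pdia3 at 186 and 183 FPKM. Among 10 rows of class II peptide supply genes the median was -0.14, and 1 was lower by at least 1.5-fold. That row was Ifi30, the lysosomal thiol reductase GILT, at 12.9 FPKM under vehicle against 8.57 FPKM under CORT. Cathepsin S (Ctss), which trims the invariant chain, was at 139 and 144 FPKM.

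Among 13 regulators of MHC transcription, 10 had a row, and Ciita, Rfxap and Nlrc5 had none, so the master coactivators of both routes could not be described. The median of their 14 rows was 0.03. Irf8, a factor of the myeloid lineage, was at 7.52 FPKM under vehicle against 3.40 FPKM under CORT, a log2 ratio of -1.15, and 1 row of Nfyc, an NF-Y subunit, was higher, at 1.22 and 2.80 FPKM, while its main row was at 30.1 and 28.0 FPKM. Rfx5, which binds the X box, was at 10.2 FPKM in both groups.

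In the interferon-gamma list, 4 of 15 rows were lower and 0 higher by at least 1.5-fold, with a median of -0.23. The 4 were Gbp2 at 4.00 and 1.89 FPKM, Ifi47 at 3.01 and 1.46 FPKM, Gbp5 at 1.13 and 0.621 FPKM, and the chemokine Cxcl10 at 1.07 and 0.284 FPKM. Of these, Gbp5 and Cxcl10 reached 1 FPKM only in the vehicle group. Their means were under 1 FPKM, where 28.0% of all rows were lower by at least 1.5-fold. Irf1, a factor that carries the interferon signal to the class I promoters, was at 5.75 and 4.89 FPKM, a log2 ratio of -0.23. The receptor genes Ifngr1 and Ifngr2 had log2 ratios of 0.12 and 0.07, and Ifng itself had no row.

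**Figure D4:**
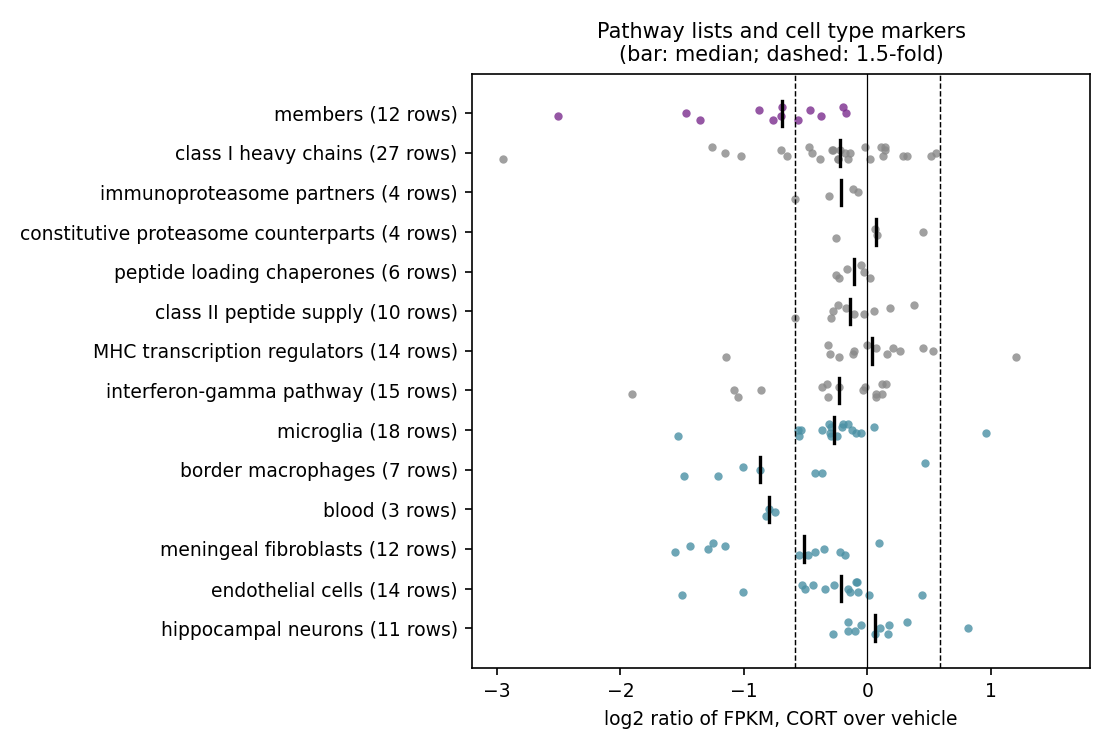
Log2 ratio of the CORT over the vehicle FPKM (horizontal axis) for the rows of some of the lists. Each point is 1 transcript row, with a bar at the median of each list drawn. Corticosteroid targets (median 0.86), co-stimulation and class I-like genes are not drawn. Also not drawn are dendritic cells, T cells, B cells, monocytes and neutrophils, choroid plexus, astrocytes and oligodendrocytes. Medians of the members (-0.70), border macrophages (-0.87) and blood (-0.80) lie to the left, and those of hippocampal neurons (0.06) and constitutive proteasome subunits (0.07) lie close to 0.

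Some markers of cell types that could carry these transcripts had a lower FPKM in the CORT group too. Over all rows, 4.91% were lower and 4.21% higher by at least 1.5-fold. In bulk tissue, fewer cells of a type and less RNA per cell cannot be told apart. Of 12 markers of border macrophages, cells that carry class II at the brain's surface and vessels, 7 had a row, 4 of 7 rows were lower and 0 higher by at least 1.5-fold, and their summed level was 13.5 FPKM under vehicle against 8.11 FPKM under CORT. Pf4 was at 6.63 and 2.86 FPKM, the mannose receptor Mrc1 at 1.02 and 0.756 FPKM and Folr2 at 1.06 and 0.525 FPKM, while Lyve1 was at 1.27 and 1.75 FPKM and Cd163 had no row. Without Pf4 the sum was 6.91 and 5.26 FPKM, and 3 of the 4 lower rows had a mean under 1 FPKM, where 28.0% of all rows were as much lower. For microglia, 16 of 18 markers had a row, 16 of 18 rows were below the vehicle value, and 1 was lower and 1 higher by at least 1.5-fold. The lower one was Ptprc, the leukocyte antigen CD45, at 1.79 and 0.617 FPKM, and the higher one Tmem119, a microglial surface protein, at 5.72 and 11.2 FPKM. The median of the 18 rows was -0.27 and their summed level 580 and 513 FPKM. Tyrobp (-0.56), Cx3cr1 (-0.55) and the main Aif1 row (-0.54) had log2 ratios near that of the main Cd74 row, -0.56. The most abundant marker, Ctss, was at 139 and 144 FPKM.

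Markers of blood and meninges were lower in the CORT group too. All 3 blood rows were lower by at least 1.5-fold, with Hbb at 580 and 334 FPKM, although 6 of 9 listed markers had no row. Meningeal fibroblast markers had a median of -0.52 over 12 rows, 5 of them lower and 0 higher by 1.5-fold, and summed to 188 and 142 FPKM. Endothelial markers had a median of -0.21 over 14 rows, with 12 below the vehicle value, 2 lower and 0 higher by 1.5-fold. They summed to 158 and 157 FPKM, with Kdr, a receptor of VEGF, at 2.601 and 1.293 FPKM and the glucose transporter Slc2a1 at 46.1 and 62.5 FPKM. Monocytes and neutrophils had a median of -0.10 over 5 rows, choroid plexus -0.02 over 15, astrocytes -0.05 over 16 and oligodendrocytes -0.23 over 13, with 1, 0, 2 and 1 rows lower and 1, 1, 3 and 0 higher by 1.5-fold. The part of these cell types in the lower RT1 and Psmb8 values was not tested.

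Few of the listed lymphocyte and dendritic cell markers had a row. Among B cell markers 1 of 6 had a row (Blnk, 5.58 and 5.42 FPKM), and the defining markers Ms4a1 and Cd79a had none. Of the T cell markers 3 of 10 had one, with Cd8a and Trac absent, and of the dendritic cell markers 3 of 8, with Itgax, Xcr1 and Clec9a absent. In these lists 0 of 1, 1 of 4 and 1 of 3 rows were lower by at least 1.5-fold. The lower rows were Cd4 (5.30 and 3.47 FPKM) and Batf3 (1.22 and 0.348 FPKM). The mean of Batf3 was under 1 FPKM, where 28.0% of all rows were lower by at least 1.5-fold. The main Cd3e row was at 5.27 and 5.03 FPKM, and the dendritic cell marker Flt3 at 2.26 and 2.25 FPKM. The absence of a row was not used as a level of 0, because the authors had removed features with few alignments.

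Markers of the tissue and of the treatment were counted in the same way. Hippocampal neuron markers had a row for 9 of 12 genes, with 5 of 11 rows below the vehicle value, and 0 lower and 1 higher by 1.5-fold (Zbtb20, 1.55 and 2.72 FPKM). The most abundant, Camk2a, was at 593 and 667 FPKM, with Neurod6 at 128 and 119 FPKM and C1ql2, a dentate gyrus gene, at 80.6 and 72.0 FPKM. Of 9 rows of corticosteroid targets 7 were higher and 0 lower by at least 1.5-fold in the CORT group, including the kinase gene Sgk1 at 28.5 and 70.4 FPKM in its main row, the chaperone gene Fkbp5 at 18.6 and 33.8 FPKM and Nfkbia, the inhibitor of NF-κB, at 9.61 and 19.1 FPKM. These targets were listed with earlier results of these data known, so their count is not an independent check of the treatment label. The medians of all rows were 9.22 FPKM under vehicle against 9.38 FPKM under CORT.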

How the data were processed

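RNAseq libraries (TruSeq stranded) of 8 whole hippocampi, 4 per group, had been sequenced. The authors aligned reads to rn6 with TopHat2 and deposited 1 table of FPKM values, 1 per transcript and group, from Cuffdiff, and the submitters' processing notes list CASAVA 1.8.2, TopHat2 2.0.10 and Cuffdiff 2.2.0. Per the study's methods, libraries were normalized geometrically, with corrections for multiple mapping, sequence bias and effective length, and features failing a minimum alignment count of 10 were removed. The deposited table also holds the authors' fold changes, test statistics, p-values and q-values, which were not used. Its columns carry no depth per rat, so no precision or detection limit can be given for an FPKM value.

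Log2 ratios of CORT over vehicle FPKM were computed for every row, and counted past 1.5-fold as a description, with no test. Groups came from the treatment labels. The members and the 11 pathway and 13 marker lists were chosen with earlier results of these data known. All members were named, together with 3 neighbours at each end and, of the pathway lists, genes past 1.5-fold with at least 1 FPKM in a group or else the most abundant. A row can pass that filter through 1 group alone, which favours a difference in that direction. Of corticosteroid targets and marker lists, examples are named and not every gene past 1.5-fold. Other genes named were defining markers or known partners, named after their values were seen. Motifs were chosen with the promoters in view. The alternatives were folds of 1.2 and 2, pseudocounts of 1 and 0.1 FPKM, filters at 1 FPKM, centring, and summing rows of a symbol. Counting was checked on data with planted ratios. Python 3.11.15, numpy 2.4.6, pandas 2.3.3 and matplotlib 3.10.9 were used.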

Additional observations from a re-analysis of the deposited data

How the results depend on the processing

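No member changed the side of 0 on which it lay. Of the alternatives, only centring could have moved one across 0, and it shifted each ratio by 0.02. The smallest member ratio was -0.17. The number of member rows lower by at least 1.5-fold, 7 of 12, was 3 with a 2-fold threshold and 3 with a pseudocount of 1 FPKM. It was 4 of 9 with at least 1 FPKM in a group, 3 of 8 with at least 1 FPKM in both groups, and 10 with a threshold of 1.2. Of all rows, 4.91% were lower in the main setting, 2.03% with a 2-fold threshold and 2.35% with a pseudocount of 1 FPKM. That share was 4.45% with at least 1 FPKM in a group, 2.87% in both groups and 13.3% with a threshold of 1.2. With rows of a symbol summed, 3.75% of the symbols were lower by at least 1.5-fold. For all rows, the 798 lower and 685 higher became 2165 and 2007 with a threshold of 1.2, 331 and 312 with 2, 383 and 366 with a pseudocount of 1 FPKM, 431 and 376 with 1 FPKM in both groups, and 498 and 235 with rows of a symbol summed, where 67.9% of those past 1.5-fold were lower in place of 53.8% and 6 of 9 members were. The members' median of -0.70 was -0.43 with a pseudocount of 1 FPKM, -0.51 with 1 FPKM in both groups and -0.46 without the class II members. Of the 12 rows' ratios, 7 moved by over 0.1 with a pseudocount of 1 FPKM, 2 with one of 0.1 FPKM, 3 with rows summed and 0 when centred. A threshold sets its counts by construction, and a filter leaves fewer rows. A pseudocount moves every ratio toward 0 by construction, and more so at low FPKM. The cause of the other changes was not tested. Rats could not be left out in turn, because each group has 1 pooled value. No paired analysis was possible because each group has a single pooled column.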

Other observations

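Genes beside the 2 routes were mostly a little lower in the CORT group. Of 8 co-stimulation genes 5 had a row, and all 5 rows were below the vehicle value, with a median log2 ratio of -0.27. The receptor Cd40, through which T cells activate antigen presenting cells, was at 1.03 FPKM under vehicle against 0.619 FPKM under CORT and was the 1 row past 1.5-fold. Cd40 reached 1 FPKM only in the vehicle group. Its mean was under 1 FPKM, where 28.0% of all rows were lower by at least 1.5-fold. Cd83, a maturation marker of dendritic cells, was at 11.0 FPKM in both groups. Class I-like genes had 7 rows, with a median of -0.26 and 0 past 1.5-fold. Fcgrt, the neonatal Fc receptor that pairs with B2m, was at 22.1 and 18.5 FPKM, a log2 ratio of -0.26, near the -0.20 of B2m.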
